A study of Danio rerio and Oryzias latipes with 22 samples.

Results

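The matrix metalloproteinases (*mmp*), the tissue inhibitors of metalloproteinases (*timp*) and the ADAMTS proteases with their ADAMTS-like relatives (*adamts*, *adamtsl*) were followed in single cells of zebrafish and medaka ventricles. Members were chosen by name: every gene symbol that, ignoring case, began with mmp or timp and a digit, or with adamts, in each species separately. The rule found 51 genes among 36954 symbols in zebrafish, of which 25 were *mmp*, 5 *timp* and 21 *adamts* symbols (4 of them ADAMTS-like). In medaka it found 37 genes among 23616 symbols, of which 19 were *mmp*, 3 *timp* and 15 *adamts* symbols (2 of them ADAMTS-like). At least 1 unique molecular identifier (UMI, the tag that marks one captured transcript) was counted in kept cells for 50 zebrafish and 36 medaka members, and 31 symbols occurred in both species.

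Droplet-based single-cell RNA sequencing had been run on ventricles of wild-type Tübingen zebrafish, which regenerate heart muscle, and of wild-type CAB medaka, which do not, all described as 6 to 18 months old. Ventricles were uninjured, or had been touched at the apex with a probe cooled in liquid nitrogen (cryoinjury, 23 s) and collected 3 or 14 days post injury (dpi, written d.p.i. in the figures). There were 4 uninjured, 3 3-dpi and 6 14-dpi libraries in zebrafish, and 4, 3 and 2 in medaka. The number of fish behind a library is not given, so the p-values measure the spread between libraries, which may in part be technical.

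Barcodes with at least 200 genes and at most 40% mitochondrial UMIs were kept, which gave 47903 zebrafish cells (1673 to 5849 per library, with 4812514 to 41675153 UMIs) and 31729 medaka cells (2751 to 4855 per library, with 12703219 to 36957851 UMIs). Clusters were named from marker genes, with the members themselves left out of the clustering. Endothelial, epicardial, cardiomyocyte, macrophage, granulocyte, lymphocyte, thrombocyte and erythroid clusters were found in both species and mural cells in zebrafish. Zebrafish uninjured replicates 1 and 2 had been counted with an earlier Cell Ranger version and another gene list than all other zebrafish libraries. The lists are called older and newer here after those versions, since no dates of the lists are given. Several members (*MMP23B*, *mmp9*, *mmp11b*, *mmp15a*, *mmp15b*, *mmp17a*) were lower in these 2 libraries than in uninjured replicates 3 and 4, some of them near 0. The part of the list and of the version in this was not tested. The zebrafish calls against uninjured ventricles are therefore given with and without those 2 libraries, whereas means over all libraries, such as those of *MMP23B* and *mmp17a* by cell type, include them.

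Matrix metalloproteinases are zinc enzymes that cut collagens, gelatins and other matrix proteins. Some are secreted as inactive precursors (*mmp2* and *mmp9*, the gelatinases, and *mmp13*, a collagenase), and others are held at the cell surface (*mmp14*, *mmp15*, *mmp16*, *mmp17* and *mmp25*, the membrane types). TIMP proteins bind the active site and block it, and TIMP2 also takes part in the activation of MMP2 by MMP14 at the cell surface. ADAMTS enzymes cut versican and aggrecan (*adamts1*, *adamts5*, *adamts9*, *adamts15*, *adamts20*) or trim procollagen (*adamts2*, *adamts3*, *adamts14*), and the ADAMTS-like proteins resemble them but lack the protease domain. In injured hearts these families are known for the turnover of provisional matrix and scar.

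With all time points pooled, the families' UMIs were spread differently over the cell types of the 2 species. In zebrafish, epicardial cells held 58.9% of 78385 *mmp* UMIs, 51.6% of 46726 *timp* UMIs and 42.9% of 36646 *adamts* UMIs, although they made up 3965 of the 47903 kept cells. Zebrafish endothelial cells came next for *timp* (27.8%) and *adamts* (27.4%), and cardiomyocytes held 15.6% of *mmp* and 19.8% of *adamts* UMIs. In medaka, *mmp* UMIs were spread over endothelial cells (31.4% of 43393), macrophages (25.3%), unnamed clusters (13.7%) and epicardial cells (13%). Medaka *timp* UMIs came mainly from endothelial cells (58.5% of 23767), and *adamts* UMIs from cardiomyocytes (49.6% of 12549) and endothelial cells (31.6%). The medaka *timp* shares leave out an inhibitor spelled *timp-2b*, which the rule does not match and which had more UMIs than *timp2*, as described below. The order of the cell types was not the same at each time. In uninjured zebrafish ventricles endothelial cells held more of the *timp* UMIs (41.0%) than epicardial cells (36.2%), and more of the *adamts* UMIs (38.2%) than cardiomyocytes (31.4%) or epicardial cells (21.7%). Epicardial cells held 70.9% of *timp* and 50.2% of *adamts* UMIs at 3 dpi, and 41.2% and 49.3% at 14 dpi. In medaka at 3 dpi, endothelial cells held 68.1% of *adamts* UMIs and cardiomyocytes 16.8%. Macrophages held 34.8% of medaka *mmp* UMIs at that time, unnamed clusters 30.6% and endothelial cells 22.8%. These shares depend on how many cells of each type a library held, on how many UMIs each cell gave and on the level in each cell. In medaka uninjured replicate 2, for example, cardiomyocytes were 18.0% of kept cells and held 8981027 of 17597668 non-mitochondrial UMIs. In zebrafish uninjured replicate 4 they were 41.0% of kept cells and held 16135475 of 27183939 such UMIs of genes in both gene lists. A large share is thus not by itself a high level, and the shares are a description of these libraries with no test.

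**Figure D1:**
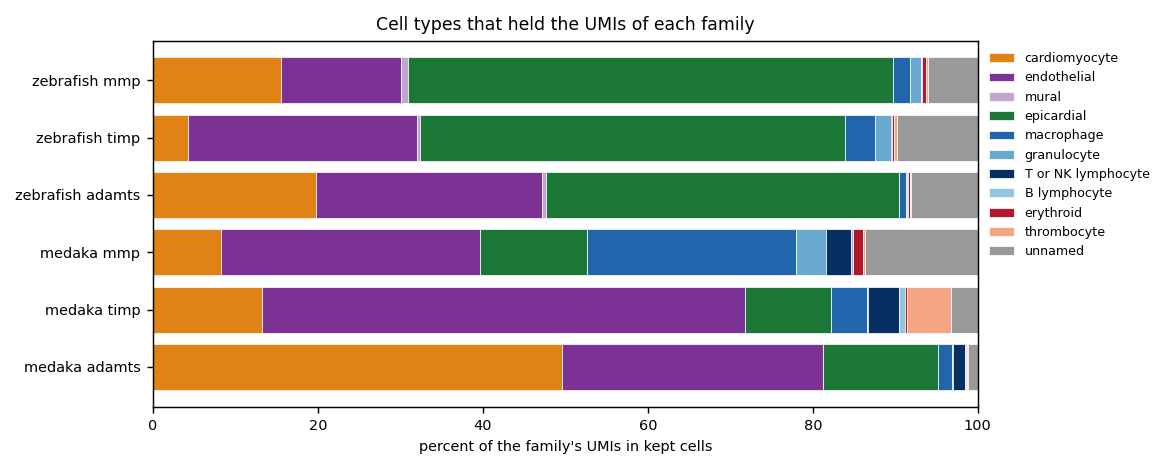
Share of each family's UMIs (percent, x axis) held by each cell type, with all libraries of a species pooled and 1 bar per family and species. Epicardial cells hold the largest part of all 3 zebrafish bars (58.9%, 51.6% and 42.9%), whereas endothelial cells (31.4% and 58.5%) and cardiomyocytes (49.6%) hold the largest part of the medaka *mmp*, *timp* and *adamts* bars. The bars pool the time points, and the order of the cell types differed between them. The medaka endothelial class at 3 dpi included cells that took another name within their library. The medaka *timp* bar leaves out *timp-2b*, an inhibitor that the rule does not match.

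Levels are given as CPM, the UMIs of a gene for every 1000000 non-mitochondrial UMIs of the same cells, and were not divided by gene length. Each mean below is over libraries with at least 10 cells of the type, whatever the time point. In zebrafish epicardial cells *mmp2* averaged 661 ± 301 CPM (SD, n = 13), *mmp14a*, the membrane-type enzyme that activates it, 274 ± 69.4 CPM, and the inhibitors *timp2a* and *timp2b* 306 ± 73.4 and 309 ± 422 CPM. Epicardial cells held 74.0% of all *mmp2*, 87.0% of *mmp14a* and 72.1% of *timp2b* UMIs. The spread of *timp2b* over time and between uninjured libraries was wide, as described below.

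Mural cells shared much of that zebrafish set, with *mmp2* at 409 ± 229 CPM, *mmp14a* at 221 ± 106 CPM and *timp2a* at 180 ± 107 CPM (n = 9). Endothelial cells carried *timp2a* at 148 ± 50.7 CPM, *mmp2* at 59.6 ± 15.7 CPM and the procollagen N-proteinase *adamts2* at 54.1 ± 20.1 CPM (n = 13). Zebrafish cardiomyocytes had *MMP23B*, a membrane-anchored metalloproteinase, at 75.6 ± 41.4 CPM and the proteoglycanase *adamts15a* at 41.2 ± 24.5 CPM, and they held 70.2% of *MMP23B* and 88.6% of *mmp17a* UMIs. Among blood cells of zebrafish, granulocytes stood out for the collagenase *mmp13a* (888 ± 747 CPM), for *timp2b* (835 ± 452 CPM) and for the membrane-type *mmp25b* (258 ± 83.9 CPM, n = 6), and held 92.4% of all *mmp13a* UMIs. No uninjured or 3-dpi cell of the granulocyte class kept that name when clusters were named within each library, as described below. Macrophages carried *timp4.3* at 118 ± 157 CPM and *mmp14b* at 97.8 ± 86.3 CPM (n = 13).

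In medaka, epicardial cells also carried *mmp2* (369 ± 304 CPM, n = 6) and *timp2* (300 ± 40.7 CPM), together with the proteoglycanase *adamts1* (115 ± 76.3 CPM). Endothelial cells had *timp2* at 252 ± 70.6 CPM, the membrane-type *mmp16* at 92.3 ± 29.1 CPM and *timp3*, an inhibitor that binds to matrix, at 66.5 ± 26.6 CPM (n = 9). Thrombocytes had *timp3* at 951 ± 232 CPM (n = 9), and thrombocytes held 24.5% of its UMIs beside 53.3% in endothelial cells. Medaka macrophages carried *mmp14a* (305 ± 256 CPM), *mmp13b* (217 ± 212 CPM) and *mmp14* (94.1 ± 44.7 CPM, n = 9). Granulocytes carried the gelatinase *mmp9* (1218 ± 570 CPM), *mmp25b* (823 ± 208 CPM) and *mmp20a* (93.9 ± 45.6 CPM, n = 5), and T or NK lymphocytes also carried *mmp25b* (169 ± 166 CPM). Cardiomyocytes had *adamtsl5* at 47.3 ± 23.3 CPM (n = 9) and held 94.4% of its UMIs, 94.0% of those of *adamts6* and 87.9% of those of *ADAMTS20*.

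Erythroid cells, which should make few of these enzymes, gave a measure of free RNA. Their mean level was at most 6.62 CPM for any zebrafish member (*timp2a*) and, apart from *mmp21* at 16.7 ± 4.68 CPM, at most 5.76 CPM for any medaka member (*mmp19*). Members at or below such levels in another cell type are not read as expressed there. This is a rule of caution: the limit is the highest mean of any member, in medaka apart from *mmp21*, and was not set gene by gene. A level under it is thus not shown to be free RNA.

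**Figure D2:**
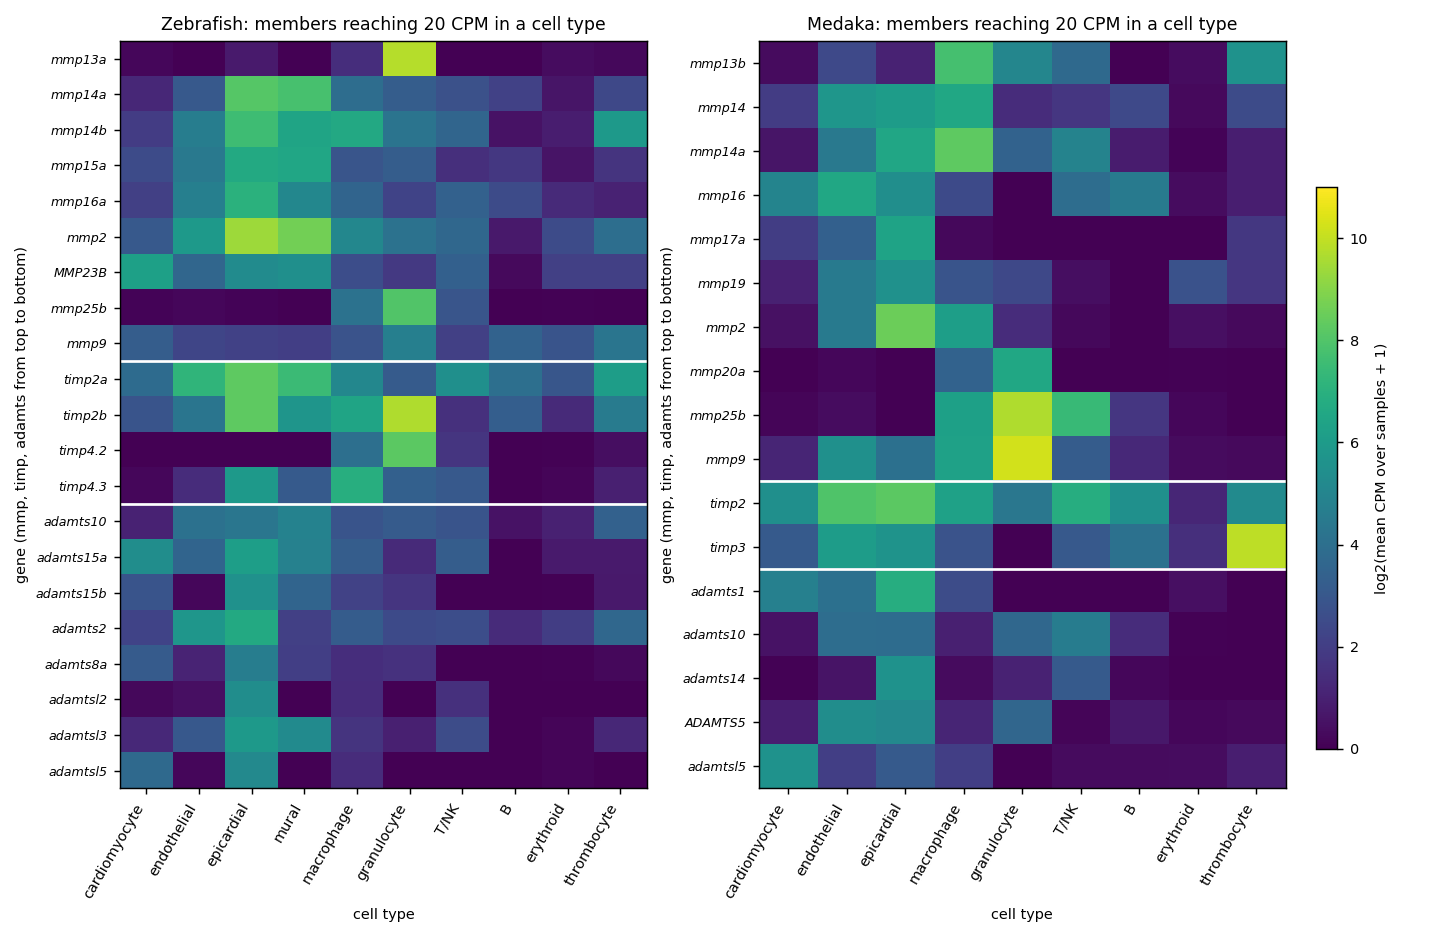
Mean level of each member that reached 20 CPM in at least 1 cell type, as log2(mean CPM + 1), with genes in rows (*mmp*, *timp* and *adamts* from top to bottom, separated by white lines), cell types in columns, zebrafish on the left and medaka on the right. Among the brightest cells of the map are *mmp13a* and *timp2b* in zebrafish granulocytes (888 and 835 CPM), *mmp2* in zebrafish epicardial cells (661 CPM), *mmp9* in medaka granulocytes (1218 CPM) and *timp3* in medaka thrombocytes (951 CPM).

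The summed level of each family over all kept cells is a description, with no test. In zebrafish the *mmp* sum was 162 ± 105 CPM in uninjured ventricles, 374 ± 44.1 CPM at 3 dpi and 354 ± 129 CPM at 14 dpi (n = 4, 3 and 6), and the *timp* sum was 146 ± 81.8, 273 ± 29.5 and 168 ± 39.7 CPM. The zebrafish *adamts* sum was 115 ± 28, 156 ± 6.96 and 158 ± 39.0 CPM. The lowest uninjured *mmp* sums, 69.1 CPM and a value close to it, came from replicates 1 and 2 with the older gene list, and the highest uninjured sum was 256 CPM, below all 3 values at 3 dpi (324 to 407 CPM) and inside the 14-dpi range (148 to 538 CPM).

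In medaka the *mmp* sum was 164 ± 57.2 CPM in uninjured ventricles, 431 ± 210 CPM at 3 dpi and 285 ± 96.5 CPM at 14 dpi (n = 4, 3 and 2). The medaka *timp* sum was 150 ± 38.8, 113 ± 13.5 and 154 ± 29.2 CPM. It leaves out *timp-2b*, which the rule does not match. That gene alone averaged 447 ± 157, 1006 ± 497 and 294 ± 107 CPM, above each of these sums and highest at 3 dpi. The time course of the sum is thus not that of all medaka inhibitors. The medaka *adamts* sum was 94.0 ± 16.8 CPM in uninjured ventricles, 27.3 ± 8.95 CPM at 3 dpi and 86.7 ± 25.1 CPM at 14 dpi, so that at 3 dpi all libraries (18.9 to 36.7 CPM) lay below all uninjured ones (74.1 to 110 CPM). Over all kept cells, fewer cells of a type and less RNA per cell cannot be told apart. The mean share of erythroid cells was 5.1% in uninjured zebrafish ventricles, 44.2% at 3 dpi and 21.2% at 14 dpi, and 18.5%, 52.1% and 19.8% in medaka.

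**Figure D3:**
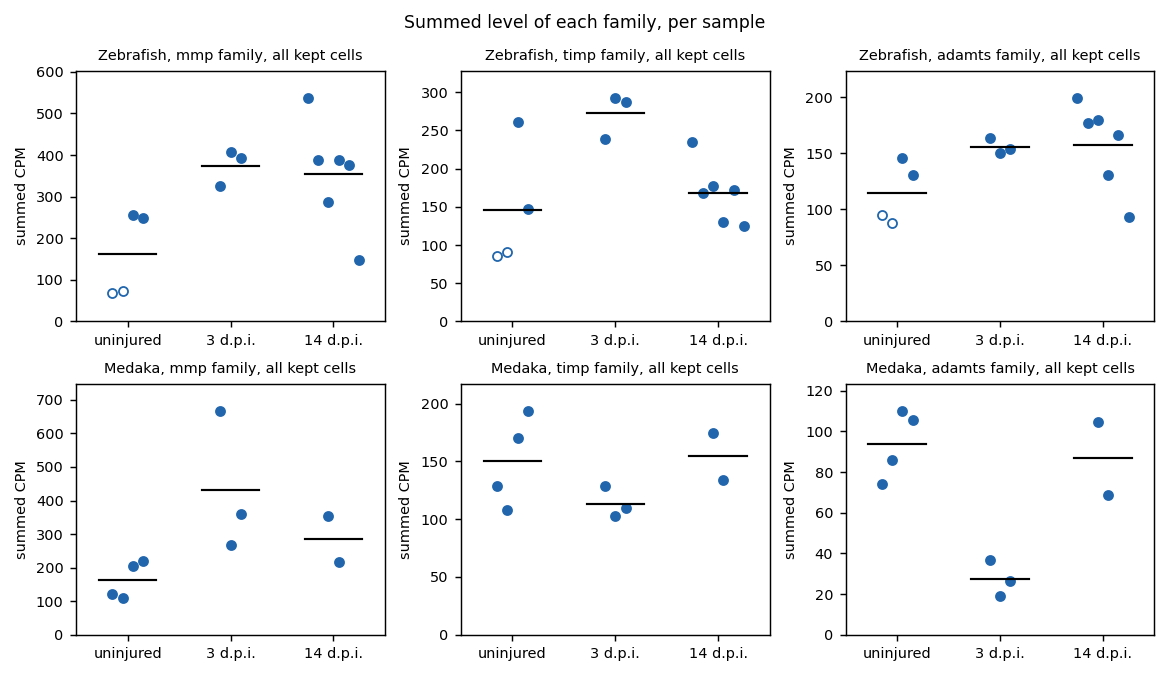
Summed CPM of each family over all kept cells (y axis, from 0) in uninjured, 3-dpi and 14-dpi libraries, zebrafish above and medaka below, with 1 point per library, a black bar at the mean and open circles for zebrafish uninjured replicates 1 and 2, counted against the older gene list. The medaka *adamts* points at 3 dpi (18.9 to 36.7 CPM) lie apart from the uninjured points (74.1 to 110 CPM), whereas the zebrafish *adamts* points at 14 dpi (93.3 to 199.9 CPM) overlap both the 3-dpi points (150 to 163 CPM) and the uninjured points (87.5 to 146 CPM). The medaka *timp* panel leaves out *timp-2b*.

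Which members changed over all kept zebrafish cells was tested with edgeR's quasi-likelihood test, with Benjamini-Hochberg adjustment over all genes tested and a threshold of 0.05. At 3 dpi 8 of the 37 tested members passed, 4 up and 4 down, where 10.1% of all genes passed (5.31% higher and 4.78% lower). The median log2 fold change over the tested members was 0.31, against -0.07 over all genes. By family, 16 *mmp* members had a median of 1.13, 4 *timp* members -0.86 and 17 *adamts* members -0.14. At 14 dpi against uninjured 0 of 37 passed, where 2.30% of all genes passed. An unadjusted p under 0.05 was found for 12 of these members and for 4017 of all 17190 genes tested. DESeq2 called 7 members, and the share of all genes it called is not given here. Between 14 and 3 dpi 3 of 37 passed, where 2.93% of all genes passed. The 3 comparisons share libraries and are not independent of each other.

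The ADAMTS-like gene *adamtsl7* rose most. Over all kept cells it had 22.7, 20.9 and 31.0 CPM at 3 dpi, against 0, 0.111, 0.0632 and 0.0736 CPM in uninjured ventricles (log2 fold change 8.14 ± 0.76 SE, adjusted p = 0.00043). All 3 injured libraries stood far above all 4 uninjured ones. At 14 dpi the level was back under 1 CPM (0.478 ± 0.340 CPM, n = 6, against 24.9 ± 5.38 CPM at 3 dpi, log2 fold change -5.53 ± 0.54, adjusted p = 0.0022). The call at 3 dpi held in every alternative run, and without the libraries of the older gene list the fold change was 8.31 (adjusted p = 0.0016).

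The other members that rose over all kept zebrafish cells at 3 dpi were the membrane-type *mmp15a*, *adamts10*, whose human counterpart binds fibrillin, and *adamts12*, whose human counterpart cuts cartilage oligomeric matrix protein. *mmp15a* had 47.5, 33.8 and 40.1 CPM at 3 dpi, against 2.00, 2.22, 14.2 and 11.8 CPM in uninjured ventricles (log2 fold change 2.27 ± 0.50, adjusted p = 0.015). Its lowest uninjured values were those of the older gene list, and without them the fold change was 1.61 (adjusted p = 0.016). Without 3-dpi replicate 3 the adjusted p of *mmp15a* was 0.058. *adamts10* had 15.5 ± 2.90 CPM at 3 dpi, against 4.12 ± 2.03 CPM in uninjured ventricles (log2 fold change 1.65 ± 0.31, adjusted p = 0.008), and *adamts12* 4.70 ± 1.14 CPM, against 0.699 ± 0.235 CPM (log2 fold change 2.4 ± 0.48, adjusted p = 0.01). Without the older gene list their fold changes were 1.43 (adjusted p = 0.017) and 2.45 (adjusted p = 0.016).

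The members that fell were the inhibitor *timp4.3*, the ADAMTS-like *adamtsl5* and the proteoglycanases *adamts5* and *adamts9*. *timp4.3* had 1.40, 0.0917 and 2.1 CPM at 3 dpi, against 6.40, 10.2, 21.1 and 24.2 CPM in uninjured ventricles (log2 fold change -3.94 ± 0.76, adjusted p = 0.0095), and 21.3 ± 9.66 CPM at 14 dpi (14 against 3 dpi, log2 fold change 4.21 ± 0.76, adjusted p = 0.013). The 3-dpi libraries thus formed a low point between 2 groups that overlapped each other, and without the older gene list the fold change at 3 dpi was -4.30 (adjusted p = 0.0062). *adamtsl5* had 4.76 ± 0.375 CPM at 3 dpi, against 10.2 ± 5.34 CPM in uninjured ventricles (log2 fold change -1.34 ± 0.29, adjusted p = 0.015), and passed again between 14 and 3 dpi (1.27 ± 0.27, adjusted p = 0.026). Its 3-dpi call was lost without any one 3-dpi library (adjusted p 0.067 to 0.088), and without the older gene list the fold change was -1.66 (adjusted p = 0.0035). The calls of *adamts5* (-1.70 ± 0.48, adjusted p = 0.042) and *adamts9* (-1.44 ± 0.42, adjusted p = 0.047) were lost the same way, and without the older gene list their fold changes were -0.87 and -0.74 (adjusted p = 0.17 and 0.2).

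Within zebrafish epicardial cells, 10 of the 26 tested members passed at 3 dpi (4 up, 6 down), where 29.5% of all genes passed (15.7% higher and 13.8% lower), so the share of members was not far from that of all genes. The median log2 fold change was -0.04 over the members and -0.02 over all genes. The clusters that made up the class differed. A cluster led by *col12a1b*, *fn1a* and *postnb* held 87.0% of epicardial cells at 3 dpi, 23.7% at 14 dpi and 0.316% in uninjured ventricles. Most other uninjured cells lay in a *tcf21* and *hapln1a* cluster (54.9%) or a *c4b* and *dpt* cluster (44.7%). Of the cells of the *tcf21* and *hapln1a* cluster, 69.0% came from uninjured replicate 4. The *c4b* and *dpt* cluster also held 75.2% of epicardial cells at 14 dpi. Values at 3 dpi are thus compared with those of largely different clusters, whereas uninjured and 14-dpi cells shared the *c4b* and *dpt* cluster.

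*adamtsl7* was again the member with the largest change. Epicardial cells had 63.2, 62.1 and 69.8 CPM at 3 dpi, against 0, 0, 0 and 0.368 CPM in uninjured ventricles. The ratio of summed UMIs was 357 (counting interval 63.9 to 14100), with an adjusted p of 2.7e-05, and the call held in all 16 alternatives (adjusted p = 1e-04 without the older gene list). At 14 dpi the lowest, median and highest libraries had 0, 3.45 and 5.28 CPM, which passed against uninjured although the ranges overlapped at 0 (log2 fold change 4.05 ± 0.77, adjusted p = 0.019, with 3.73 and 0.037 without the older gene list and an adjusted p of 0.051 without uninjured replicate 1). These 14-dpi levels lay below the highest zebrafish erythroid mean given above and are not read as expression. That mean is of another gene, *timp2a*, so it does not show that the *adamtsl7* UMIs were free RNA. The gene was concentrated in the *col12a1b* cluster (52.0 CPM) and in an unnamed cluster led by proliferation genes (69.5 CPM), and was at 2.16 and 0.267 CPM in the other epicardial clusters named above.

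The other epicardial members that rose at 3 dpi were *mmp15a*, *mmp15b* and *MMP23B*. The membrane-type *mmp14a* did not pass (log2 fold change -0.31, adjusted p = 0.41). Epicardial *mmp15a* had 191, 76.7 and 137 CPM at 3 dpi, against 11, 10.5, 37.4 and 35.7 CPM in uninjured ventricles (log2 fold change 2.30 ± 0.52, adjusted p = 0.0054, and 1.77 with adjusted p = 0.028 without the older gene list). It passed at 14 dpi as well, with 34.0, 137 and 230 CPM as the lowest, median and highest values, the lowest inside the uninjured range (2.47 ± 0.48, adjusted p = 0.022). That later call was lost without the older gene list (1.99, adjusted p = 0.065) and without 14-dpi replicate 2 or uninjured replicate 1 or 2 (adjusted p 0.051 to 0.065). *MMP23B* had 54.6, 64.2 and 61.2 CPM at 3 dpi, against 0, 1.16, 21.8 and 19.1 CPM in uninjured ventricles (2.26 ± 0.68, adjusted p = 0.023). With the uninjured libraries of the newer list alone the *MMP23B* fold change was 1.48 (adjusted p = 0.022), and it missed the threshold without 3-dpi replicate 2 or 3 (adjusted p = 0.071 and 0.054).

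The paralog *mmp15b* had 9.10, 47.1 and 14.1 CPM at 3 dpi, against 0, 0, 2.61 and 1.1 CPM in uninjured epicardial cells (log2 fold change 4.3 ± 1.29, adjusted p = 0.023). All injured libraries lay above all uninjured ones, but the call was lost without the older gene list (3.78, adjusted p = 0.13) and without 3-dpi replicate 2 (3.2, adjusted p = 0.12) or any of uninjured replicates 1, 2 and 4.

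The inhibitor *timp4.3* and the ADAMTS-like *adamtsl3* moved the other way in epicardial cells. *timp4.3* had 5.62, 0.285 and 2.17 CPM at 3 dpi, against 80.5, 63.9, 40.9 and 124 CPM in uninjured ventricles (log2 fold change -5.18 ± 0.98, adjusted p = 0.0021). *adamtsl3* had 15, 7.28 and 18.9 CPM, against 63.4, 55.7, 109 and 57.7 CPM (-2.54 ± 0.51, adjusted p = 0.0028). In both genes no injured library reached the lowest uninjured one, and both calls held in all 16 alternatives (-5.24 with adjusted p = 0.0074 and -2.64 with adjusted p = 0.004 without the older gene list). At 14 dpi *timp4.3* was at 13.4, 73.9 and 168 CPM and *adamtsl3* at 12.2, 78.6 and 126 CPM (lowest, median and highest library), and both passed between 14 and 3 dpi (5.19 ± 0.96 and 2.62 ± 0.49, adjusted p = 0.002 each).

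The other epicardial members that fell at 3 dpi were *adamts5* (2.96 ± 1.21 CPM at 3 dpi, against 20.4 ± 20.9 CPM, adjusted p = 0.0054), *ADAMTS7* (3.58 ± 1.27 against 9.51 ± 2.68 CPM, adjusted p = 0.0076), *adamtsl5* (6.62 ± 3.78 against 29.3 ± 19.1 CPM, adjusted p = 0.015) and *timp2a* (209 ± 44.1 against 304 ± 54.6 CPM, adjusted p = 0.033). Of these, *adamts5* held in all 16 alternatives. Without the older gene list the fold changes of *adamts5*, *ADAMTS7* and *timp2a* were -1.52 (adjusted p = 0.022), -1.76 (adjusted p = 0.0059) and -0.85 (adjusted p = 0.031). The *ADAMTS7* call was lost without 3-dpi replicate 2 (adjusted p = 0.054), *adamtsl5* without 3-dpi replicate 2 or 3 (0.073 and 0.064) and without the older gene list (-1.1, adjusted p = 0.17), and *timp2a* without 3-dpi replicate 2 or 3 (0.14 and 0.11) or uninjured replicate 1 or 4.

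Between 14 and 3 dpi, 12 of the 26 epicardial members passed (10 up, 2 down), where 25.9% of all genes passed (10.9% higher and 15% lower). Beside *timp4.3* and *adamtsl3*, the members that rose were *adamtsl5* (52.6 ± 23.8 against 6.62 ± 3.78 CPM, log2 fold change 3.15 ± 0.64, adjusted p = 0.0035), *adamtsl2* (75.8 ± 51.2 against 5.28 ± 6.75 CPM, 4.01 ± 1.08, adjusted p = 0.015), *adamts15b* (70.5 ± 28.6 against 25.3 ± 15.4 CPM, adjusted p = 0.016), *adamts5*, *timp2a* (355 ± 42.8 against 209 ± 44.1 CPM, adjusted p = 0.0095), *mmp2*, *adamts2* and *adamts14*. The gelatinase *mmp2* had a lowest, median and highest level of 355, 986 and 1124 CPM at 14 dpi, against 500, 417 and 588 CPM at 3 dpi (0.97 ± 0.28, adjusted p = 0.021), a call that was lost without any one 3-dpi library (adjusted p 0.051 to 0.11). *adamtsl7* and *timp2b* fell. Single libraries also decided several of the other calls. Without one or another 3-dpi library the adjusted p was 0.14 to 0.15 for *adamts14*, 0.087 to 0.18 for *adamts2*, 0.083 and 0.099 for *adamts15b* (without replicate 3 or 2), 0.072 and 0.073 for *adamtsl2* (replicate 1 or 2), 0.053 and 0.07 for *timp2a* (replicate 3 or 2) and 0.051 for *adamts5* (replicate 2 or 3). The calls of *adamts14* and *adamts2* were also each lost without any one of 3 14-dpi libraries (adjusted p 0.054 to 0.064 and 0.065 to 0.086). Epicardial *adamts14* was at 16.1 CPM in 14-dpi replicate 4 and at most 6.35 CPM in the other 14-dpi libraries. Those lower levels lay below the highest zebrafish erythroid mean given above and are not read as expression.

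The inhibitor *timp2b* showed how much 1 library can weigh. In epicardial cells it had 581, 612 and 950 CPM at 3 dpi, against 31.7, 22.1, 1304 and 43.4 CPM in uninjured ventricles. Uninjured replicate 3 lay above every injured library and the other 3 far below, so the change did not pass (log2 fold change 1.13 ± 1.04, adjusted p = 0.43). Between 14 dpi (9.73, 54.9 and 161 CPM as lowest, median and highest) and 3 dpi it passed (-3.08 ± 0.94, adjusted p = 0.027), a call that was lost without any one 3-dpi library (adjusted p 0.055 to 0.081) or without 14-dpi replicate 1 (0.054).

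At 14 dpi against uninjured only *adamtsl7* and *mmp15a* passed of the 26 epicardial members, where 1.70% of all genes passed. The median log2 fold change of the members was 0.59, against -0.01 over all genes. Epicardial *mmp2* had an estimate of 1.02 ± 0.25 with an adjusted p of 0.058.

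**Figure D4:**
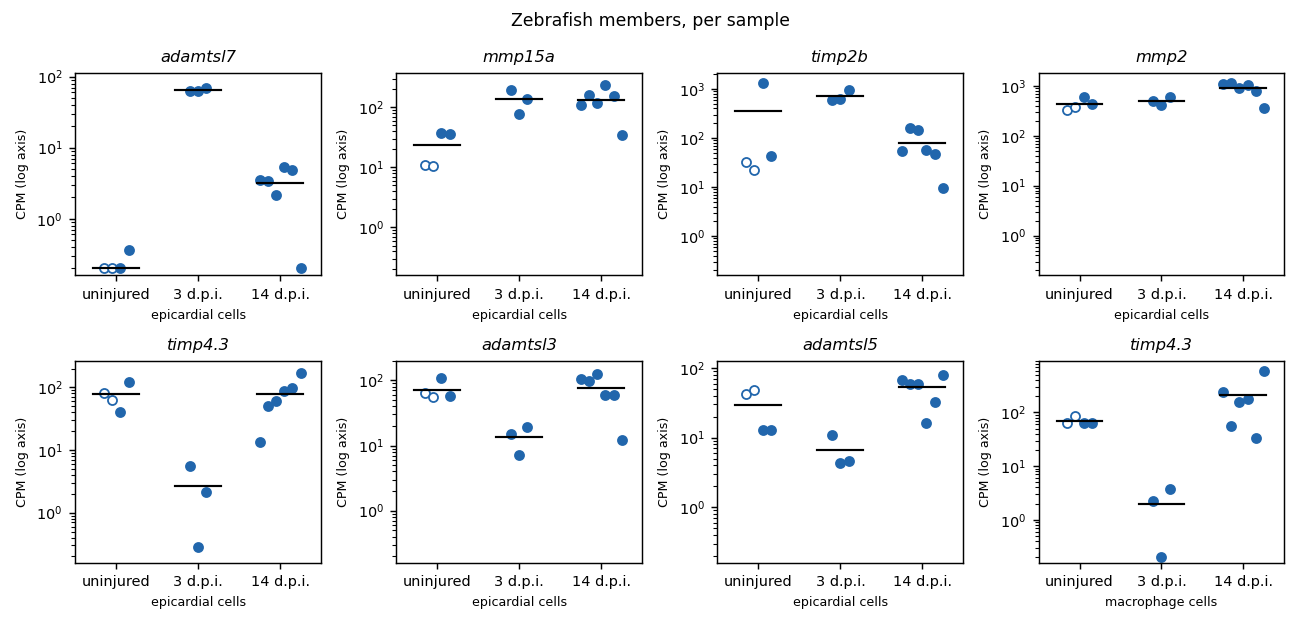
CPM per library (log axis, values under 0.2 CPM drawn at 0.2) for zebrafish members in epicardial cells, and for *timp4.3* also in macrophages, at uninjured, 3 and 14 dpi. Points are libraries, bars are means and open circles are uninjured replicates 1 and 2. *adamtsl7* and *mmp15a* are high at 3 dpi, *timp4.3*, *adamtsl3* and *adamtsl5* are low there, and for *timp2b* uninjured replicate 3 (1304 CPM) stands above the injured libraries.

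In zebrafish macrophages *timp4.3* had 2.25, 0 and 3.76 CPM at 3 dpi, against 64.5, 85.0, 63.1 and 62.9 CPM in uninjured ventricles (log2 fold change -4.89 ± 1.02, adjusted p = 0.014), and 32.9, 169 and 580 CPM as the lowest, median and highest values at 14 dpi (14 against 3 dpi, 6.26 ± 1.01, adjusted p = 0.027). *timp4.3* was the only member called of 8 tested in macrophages, where 11.2% of all genes passed at 3 dpi and 0.720% between 14 and 3 dpi. The 3-dpi call was lost without 3-dpi replicate 2 or 3 (adjusted p = 0.053 and 0.059), and without the older gene list the fold change was -4.61 (adjusted p = 0.034). The call between 14 and 3 dpi was lost without 3-dpi replicate 2 or 3 (adjusted p = 0.09 and 0.17), without 14-dpi replicate 1 or 3 (0.054 and 0.055) and with names made within each library (0.059). At 14 dpi against uninjured 0 of 8 passed, where 0.350% of all genes passed. At an unadjusted p under 0.05 were 4 members and 713 of all 5137 genes.

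In zebrafish endothelial cells 1 of 22 members passed at 3 dpi, where 3.83% of all genes passed: *adamts10* had 28.8, 26.8 and 55.1 CPM at 3 dpi, against 4.34, 4.56, 13.5 and 12.8 CPM in uninjured ventricles (log2 fold change 2.13 ± 0.48, adjusted p = 0.033). All injured libraries were above all uninjured ones, and without the older gene list the fold change was 1.77 (adjusted p = 0.049). The call was lost without any one 3-dpi library (adjusted p 0.081 to 0.15) and without uninjured replicate 1 or 2. Different clusters made up the class: one with *cfd*, *gpr182* and *vcam1b* among its leading genes held 87.0% of endothelial cells at 3 dpi and 0.289% in uninjured ventricles. At 14 dpi against uninjured 0 of 22 passed, where 2.45% of all genes passed. At an unadjusted p under 0.05 were 4 members and 2567 of all 13239 genes.

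In zebrafish cardiomyocytes 1 of 16 members passed at 3 dpi, where 2.37% of all genes passed: *timp2b* had 14.8, 36.5 and 10.8 CPM at 3 dpi, against 0, 0.387, 1.62 and 0.558 CPM in uninjured ventricles (log2 fold change 4.43 ± 0.83, adjusted p = 0.026). The groups did not overlap, and without the older gene list the fold change was 4.00 (adjusted p = 0.015). Here too the clusters differed, since one with *got1*, *scn4ba* and *actn2b* among its leading genes held 64.1% of cardiomyocytes at 3 dpi and 0.475% in uninjured ventricles. A cluster of 446 cells named cardiomyocyte also carried genes of other cells. Its 89 cells at 3 dpi had *timp2b* at 62.6 CPM together with *mmp2* (169 CPM), *fn1a* (320 CPM) and the endothelial *cdh5* (680 CPM), whereas the main cardiomyocyte cluster of that time (882 cells) had *timp2b* at 16.9 CPM with *mmp2* at 0.729 CPM and *cdh5* at 10.6 CPM. With the mixed cluster left out, as decided once its values were known, the fold change was 4.19 (adjusted p = 0.051). The call was also lost without any one 3-dpi library (adjusted p 0.051 to 0.087) and without uninjured replicate 4. At 14 dpi 0 of 16 passed against uninjured, where 1.27% of all genes passed, and 0 of 16 against 3 dpi, where 0.00838% passed. At an unadjusted p under 0.05 were 4 and 2 members, and 2075 and 793 of all 11936 genes.

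Zebrafish granulocytes were too few in most libraries for a test, and with names made within each library 0 of 31 uninjured and 0 of 17 3-dpi cells of the class kept the name, against 439 of 630 at 14 dpi. The collagenase *mmp13a* had 1780 CPM in uninjured replicate 4, 462 CPM in 3-dpi replicate 1 and 190, 951, 166 and 1781 CPM in 14-dpi replicates 1 to 4, the libraries with at least 10 such cells. The inhibitor *timp4.2* lay mainly in a cluster of this class led by *spink2* symbols (933 CPM), 71% of whose cells came from 14-dpi replicate 1 and none of which kept the name granulocyte within its library. The membrane-type *mmp16a* is in the newer zebrafish gene list only. It had 45.9, 26.5 and 29.8 CPM over all kept cells at 3 dpi and 6.16, 36.8 and 73.5 CPM as lowest, median and highest at 14 dpi, against 13.6 and 10.0 CPM in the 2 uninjured libraries of that list, and it passed in no comparison in which it could be tested (adjusted p 0.072 to 0.95).

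Over all kept medaka cells 11 of the 27 tested members (40.7%) passed at 3 dpi, 5 up and 6 down, where 30.5% of all genes passed (15.1% higher and 15.4% lower). All 5 that rose were among the 14 *mmp* members tested (family median log2 fold change 0.71), and those that fell were 5 of 11 *adamts* members (median -1.67) and 1 of 2 *timp* members. At 14 dpi against uninjured 0 of 27 passed in edgeR, where 0.780% of all genes passed. At an unadjusted p under 0.05 were 8 members and 1653 of all 15252 genes. DESeq2 called 1 member, and the share of all genes it called is not given here. Between 14 and 3 dpi 7 of 27 passed, 5 up and 2 down, where 11.9% of all genes passed (7.41% higher and 4.47% lower).

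The 5 members that rose were *mmp14a*, *mmp13b*, *mmp9*, *mmp19* and *mmp20a*. *mmp14a* had 78.1, 63.4 and 122 CPM at 3 dpi, against 12.9, 13.1, 15.7 and 20.5 CPM in uninjured medaka ventricles (log2 fold change 2.56 ± 0.25, adjusted p = 0.00068). The collagenase *mmp13b* had 153, 65.8 and 45.0 CPM, against 2.28, 0.852, 4.73 and 12.2 CPM (4.3 ± 0.62, adjusted p = 0.002), and the gelatinase *mmp9* had 229, 32.6 and 29.4 CPM, against 2.43, 3.92, 8.06 and 21.9 CPM (3.47 ± 0.72, adjusted p = 0.0074). Both genes were highest in 3-dpi replicate 1. *mmp19*, an enzyme that cuts basement membrane proteins, had 28.7, 8.97 and 24.9 CPM, against 3.73, 4.60, 1.19 and 2.18 CPM (2.66 ± 0.57, adjusted p = 0.0089). None of these 4 genes had overlapping groups, and all 4 calls held in all 14 alternatives. *mmp20a*, known for its part in tooth enamel in mammals, had 3.26 ± 2.92 CPM at 3 dpi, against 0.733 ± 0.458 CPM (2.09 ± 0.59, adjusted p = 0.025), and was lost without 3-dpi replicate 1 (adjusted p = 0.14) or uninjured replicate 3 (0.054).

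The members that fell came mainly from cardiomyocytes and endothelial cells. *adamtsl5* had 3.23, 1.62 and 2.62 CPM at 3 dpi, against 22.8, 34.4, 42.9 and 20.2 CPM in uninjured medaka ventricles (log2 fold change -3.65 ± 0.44, adjusted p = 0.0011). *ADAMTS5* had 2.83, 1.86 and 3.1 CPM, against 16.0, 24, 7.03 and 14.1 CPM (-2.67 ± 0.59, adjusted p = 0.0098), *adamts1* 6.18 ± 2.54 against 21.4 ± 13.5 CPM (-1.67 ± 0.32, adjusted p = 0.0056), and *adamts6* 0.195 ± 0.103 against 2.27 ± 1.92 CPM (-3.40 ± 0.74, adjusted p = 0.0092). *ADAMTS20* had 0, 0, and 0.0688 CPM, against 1.45, 0.852, 11.1 and 1.92 CPM, a ratio of summed UMIs of 0.00558 (counting interval 0.000141 to 0.0313, adjusted p = 0.0067). These 5 calls held in all 14 alternatives. Cardiomyocytes, which held most UMIs of *adamtsl5*, *adamts6* and *ADAMTS20*, were on average 2.48% of kept medaka cells at 3 dpi and 16.6% in uninjured ventricles. Endothelial cells were 8.11% at 3 dpi and 25.5% in uninjured ventricles, and cells named epicardial 0.097% and 4.28%. The part of these shares in the falls, that of *timp2* included, was not tested beyond the values within cell types given below.

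The inhibitor *timp2* fell slightly, to 95, 61.3 and 68.4 CPM at 3 dpi, against 94.7, 86.5, 146 and 143 CPM in uninjured medaka ventricles (log2 fold change -0.62 ± 0.16, adjusted p = 0.019). The groups overlapped, and the call was lost without any one 3-dpi library. *timp3* had 33.1, 41.1 and 40.8 CPM, against 33.6, 21.3, 24 and 50.4 CPM (0.34 ± 0.27, adjusted p = 0.38). A further medaka inhibitor is spelled *timp-2b* in the gene list and so falls outside the rule, yet it had more UMIs than *timp2*: 1537, 929 and 553 CPM at 3 dpi, against 570, 392, 251 and 577 CPM in uninjured ventricles (1.09 ± 0.40, adjusted p = 0.066). In endothelial cells *timp-2b* averaged 2806 ± 1044 CPM at 3 dpi, against 1680 ± 689 CPM in uninjured ventricles (0.66 ± 0.38, adjusted p = 0.21). The *timp* sums and shares of medaka given above and in the figures do not contain it.

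At 14 dpi the *mmp* members had a median log2 fold change of 0.75 against uninjured ventricles, and both *mmp14a* values lay above every uninjured one. Against 3 dpi, *adamtsl5* (18.7 and 26.8 CPM, log2 fold change 3.22, adjusted p = 0.014), *adamts1* (29.9 and 18.3 CPM, 1.93, adjusted p = 0.017), *adamts6* (3.1, adjusted p = 0.038), *ADAMTS5* (24.3 and 7.71 CPM, 2.48, adjusted p = 0.039) and *timp2* (151 and 116 CPM, 0.79, adjusted p = 0.029) rose, and *mmp14a* (45.0 and 27.1 CPM, -1.39, adjusted p = 0.026) and *mmp20a* (-2.86, adjusted p = 0.044) fell. With 2 libraries at 14 dpi, most of these calls were lost when single libraries were left out.

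Unnamed clusters held 30.6% of the medaka *mmp* UMIs at 3 dpi, against 3.26% in uninjured ventricles. Macrophages were the largest named source at 3 dpi, with 34.8%, against 14.1% in uninjured ventricles. Their summed *mmp* level was 1477 ± 212 CPM at 3 dpi, against 448 ± 131 CPM in uninjured ventricles. Within macrophages 3 of 13 members passed, where 9.90% of all genes passed. The clusters of this class differed as well: one led by *gpnmb* and *cxcl19* held 24.6% of macrophages in uninjured ventricles and 1.17% at 3 dpi. Of the cells of that cluster, 59.8% came from uninjured replicate 4. *mmp14a* had 637, 502 and 743 CPM at 3 dpi, against 93.4, 145, 80.9 and 73.2 CPM in uninjured ventricles (log2 fold change 2.39 ± 0.33, adjusted p = 0.002, in all 15 alternatives), and 236 and 233 CPM at 14 dpi. The procollagen N-proteinase *adamts3* fell, with 0, 0 and 0.974 CPM, against 23.9, 14.8, 11.2 and 14.1 CPM (ratio of summed UMIs 0.0337, counting interval 0.00398 to 0.128, adjusted p = 0.0034). *mmp13b* had 612, 496 and 267 CPM, against 26.1, 24.1, 55.9 and 156 CPM (2.54 ± 0.59, adjusted p = 0.029), and this call was lost without any one 3-dpi library or without uninjured replicate 2 or 3 (adjusted p 0.051 to 0.079). For both *mmp14a* and *mmp13b* every macrophage value at 3 dpi lay above every uninjured one. At 14 dpi 0 of 13 passed against uninjured, where 0.418% of all genes passed, and 0 of 13 against 3 dpi, where 0.0678% passed. At an unadjusted p under 0.05 were 2 and 5 members, and 877 and 1017 of all 8849 genes.

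Within medaka cardiomyocytes *adamtsl5* fell as well. It had 16.2, 16.2 and 24.5 CPM at 3 dpi, against 61.2, 62.6, 82.2 and 51.1 CPM in uninjured cardiomyocytes (log2 fold change -2.02 ± 0.33, adjusted p = 0.0089). A cluster with *myoz2b*, *tnni1d* and *vmhc* among its leading genes held 66.8% of cardiomyocytes at 3 dpi, against 7.99% in uninjured ventricles. The 2 clusters with 26.0% and 17.4% of uninjured cardiomyocytes had no cell at 3 dpi. Each came mainly from 1 library: 84.95% of the first from uninjured replicate 3 and 98.8% of the second from uninjured replicate 4. *adamtsl5* was the only one of 15 members called in medaka cardiomyocytes, where 3.59% of all genes passed, and the call was lost without 3-dpi replicate 1 or 2 (adjusted p = 0.07 and 0.066). The summed *adamts* level of cardiomyocytes was 51.9 ± 10.8 CPM at 3 dpi, against 109 ± 34.4 CPM in uninjured ventricles, and 107 ± 33.5 CPM at 14 dpi. At 14 dpi against uninjured 0 of 15 passed, where 0.222% of all genes passed. At an unadjusted p under 0.05 were 2 members and 979 of all 10816 genes.

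In medaka endothelial cells 5 of 22 members passed at 3 dpi (4 up, 1 down), where 33.9% of all genes passed (18.1% higher and 15.8% lower). *mmp19* had 57.1, 20.8 and 61.3 CPM at 3 dpi, against 0.903, 0.834, 1.09 and 1.72 CPM in uninjured ventricles (log2 fold change 5.26 ± 0.44, adjusted p = 0.00014). *mmp9* had 96.9, 26.5 and 71.7 CPM, against 5.42, 8.75, 1.46 and 22.6 CPM (2.74 ± 0.70, adjusted p = 0.016), and was lost without 3-dpi replicate 1 (2.41, adjusted p = 0.055). *MMP23B* passed the test as well (4.97 ± 0.853 against 1.72 ± 0.598 CPM, 1.51 ± 0.35, adjusted p = 0.01). *adamts12* had 1.09, 0.672 and 3.47 CPM, against 0 in every uninjured library, which makes it at least 10.4-fold higher (floor of 3 UMIs over the group, adjusted p = 0.02). The levels of these 2 genes lay below 5.76 CPM, the highest medaka erythroid mean apart from *mmp21* and that of *mmp19*, and are not read as expression. Erythroid cells held 0 UMIs of either gene, so that mean does not show that their UMIs were free RNA. *ADAMTS5*, the versican-cutting enzyme, fell, with 7.44, 6.38 and 9.83 CPM, against 60.8, 149, 24.2 and 25.8 CPM (-3.08 ± 0.75, adjusted p = 0.013, and 0.052 without 3-dpi replicate 2). At 14 dpi 2 of 22 passed, where 4.12% of all genes passed: *mmp19* with 26.0 and 32.2 CPM (4.76 ± 0.46, adjusted p = 0.0012) and *mmp9* with 71.5 and 97.5 CPM (3.31 ± 0.75, adjusted p = 0.04). The later *mmp9* call was lost without either 14-dpi library (adjusted p = 0.12 and 0.20) and without uninjured replicate 1 or 2 (0.082 and 0.094). Between 14 and 3 dpi 0 of 22 passed, where 8.13% of all genes passed. At an unadjusted p under 0.05 were 3 members and 3334 of all 12004 genes.

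The endothelial class of medaka was not pure, and this touched those calls. A cluster led by *sparc*, *cd9b* and *loxl2a* made up 86.7% of endothelial cells at 3 dpi, 18.8% at 14 dpi and 3.32% in uninjured ventricles, and some of its cells carried the epicardial genes *tcf21* and *dcn*. When clusters were made within each library, 24 of its cells at 14 dpi took the name epicardial. Those 24 cells had *mmp19* at 490 CPM, *mmp9* at 957 CPM, *dcn* at 1969 CPM and *tcf21* at 231 CPM, whereas 272 cells of the same cluster and time that stayed endothelial had *mmp19* at 1.16 CPM, *mmp9* at 37.4 CPM, *dcn* at 2.61 CPM and no *tcf21* UMI. At 3 dpi 108 cells, all from replicate 3, took the name epicardial (*mmp19* 89.5 CPM, *dcn* 367 CPM), 265 stayed endothelial (*mmp19* 48.9 CPM, *dcn* 34.1 CPM) and 247, all from replicate 1, stayed unnamed (*mmp19* 24.7 CPM, *mmp9* 159 CPM).

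With the names made within each library, endothelial *mmp19* had 95.7, 19.3 and 3.44 CPM at 3 dpi and 1.17 and 0.532 CPM at 14 dpi, against 0.923, 1.15, 1.09 and 1.39 CPM in uninjured ventricles, and the fold change at 14 dpi reversed (-0.30, adjusted p = 0.97). Under those names the 3-dpi calls of endothelial *mmp9* (2.32, adjusted p = 0.1), *ADAMTS5* (-2.52, adjusted p = 0.08) and *MMP23B* (1.17, adjusted p = 0.31) were lost. The 61 cells of the cluster with a *tcf21* or *dcn* UMI were then left out, a choice made once these values were known. *mmp19* still passed at 3 dpi (3.22, adjusted p = 0.0055) but not at 14 dpi (0.76, adjusted p = 0.67), *mmp9* passed at 3 dpi (2.61, adjusted p = 0.032) but not at 14 dpi (2.24, adjusted p = 0.22), *ADAMTS5* passed (-3.11, adjusted p = 0.013), *MMP23B* did not (1.09, adjusted p = 0.08) and *adamts12* had too few UMIs to be tested. Endothelial *mmp19* and *mmp9* at 14 dpi are thus values of a class that held a small number of cells with epicardial markers. At 3 dpi the class held such cells too, and those that took the name epicardial were all in replicate 3. In that library endothelial *mmp19* was 3.44 CPM under the names made within each library.

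With clusters made over all medaka libraries, epicardial cells numbered 622 in uninjured ventricles, 9 at 3 dpi and 276 at 14 dpi, and no test was run at 3 dpi. The 9 leaves out the 3-dpi cells of the endothelial class that took the name epicardial within their library, described above. It is thus not a count of all epicardial cells at that time. At 14 dpi 0 of 18 members passed against uninjured, where 0.337% of all genes passed. At an unadjusted p under 0.05 were 6 members and 578 of all 7717 genes. *mmp2* had 925 and 456 CPM at 14 dpi, against 325, 293, 74.1 and 140 CPM in uninjured ventricles, so that the groups did not overlap (log2 fold change 1.85, adjusted p = 0.56). In granulocytes, tested with 3 libraries at 3 dpi against 2 uninjured, 0 of 2 members passed, where 0.0755% of all genes passed. At an unadjusted p under 0.05 were 0 members and 164 of all 1325 genes. Granulocyte *mmp9* had 1826, 1121 and 418 CPM at 3 dpi, against 1017 and 1706 CPM in uninjured ventricles.

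**Figure D5:**
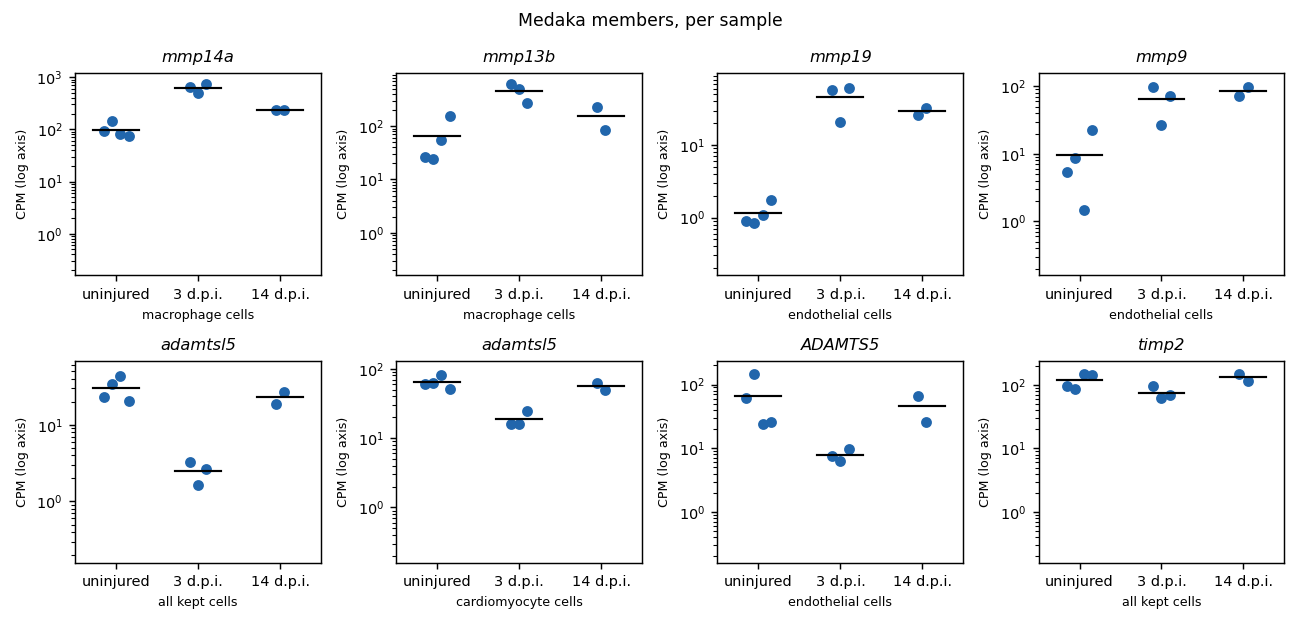
CPM per library (log axis, values under 0.2 CPM drawn at 0.2) for medaka members in the cell type named under each panel at uninjured, 3 and 14 dpi, with 1 point per library and bars at the means. Macrophage *mmp14a* and *mmp13b* and endothelial *mmp19* and *mmp9* are higher at 3 dpi than in every uninjured library, and *adamtsl5* and *ADAMTS5* are lower. The endothelial *mmp19* and *mmp9* points at 14 dpi, and those of 3-dpi replicate 3, include cells with epicardial markers.

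Whether the change at 3 dpi differed between the species was tested as an interaction, zebrafish change minus medaka change, over genes with the same symbol in both, in cell types with enough cells in all 4 groups. Of 33 pairs of member and cell type, 0 passed in edgeR (6 at an unadjusted p under 0.05). DESeq2 called 3 of these pairs, and the share of all genes it called is not given here. The edgeR tests were split over 3 cell types. In edgeR 0 of 16 pairs passed in endothelial cells, where 5.87% of all genes passed, 0 of 5 in macrophages, where 0.777% passed, and 0 of 12 in cardiomyocytes, where 0.268% passed. Of all genes, 2179 of 9690 in endothelial cells, 843 of 5790 in macrophages and 1296 of 9326 in cardiomyocytes had an unadjusted p under 0.05. The closest were *adamts1* in cardiomyocytes (difference of log2 fold changes 6.17 ± 1.43, adjusted p = 0.088) and in endothelial cells (2.17 ± 0.68, adjusted p = 0.075), followed by *adamts5* in endothelial cells (2.08 ± 0.75, adjusted p = 0.12). The difference for *mmp14a* in macrophages was -1.52 ± 0.99 (adjusted p = 0.52), for *mmp9* in endothelial cells -1.27 ± 1.25 (adjusted p = 0.59) and for *mmp15a* in endothelial cells 1.79 ± 0.80 (adjusted p = 0.20). A miss of the threshold does not show that the species changed alike.

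For *mmp19* the comparison had no usable error, because zebrafish endothelial cells held 0 UMIs of it. That allows up to 0.191 CPM at 3 dpi and 0.123 CPM in uninjured zebrafish endothelial cells, against means of 46.4 ± 22.2 CPM at 3 dpi and 1.14 ± 0.404 CPM uninjured in medaka. All kept zebrafish cells together held 3 UMIs of *mmp19*. Levels of the same symbol in the 2 species also depend on how each gene was annotated, and equal symbols are not proof of a one-to-one pair of genes.

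Other genes of matrix proteolysis, a list of 47 symbols with serine proteases and their inhibitors, ADAM and HTRA proteases, proprotein convertases and proteoglycans, were read from the same fits. Over all kept zebrafish cells at 3 dpi 5 of 35 tested rose and 0 fell, where 10.1% of all genes passed. Among those that rose were *htra1a*, a secreted serine protease (log2 fold change 5.84, adjusted p = 0.008), *adam8a* (4.31, adjusted p = 0.014), *plat*, the tissue plasminogen activator (3.00, adjusted p = 0.015), and *serpine2* (1.40, adjusted p = 0.023). At 14 dpi *htra1a* (4.91, adjusted p = 0.029) and *serpine2* (1.54, adjusted p = 0.026) were still higher than in uninjured ventricles. In zebrafish epicardial cells at 3 dpi, where 29.5% of all genes passed, 4 of 29 rose and 3 fell, the falls being *vcanb*, which encodes versican, a substrate of ADAMTS enzymes (-2.53, adjusted p = 0.00095), *htra1b* (-2.36, adjusted p = 0.0085) and *lrp1aa* (-0.82, adjusted p = 0.042).

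Over all kept medaka cells at 3 dpi 6 of 24 tested genes of the list rose and 3 fell, where 30.5% of all genes passed. Among them *adam8a* (log2 fold change 3.79, adjusted p = 0.00051), *htra1a* (3.32, adjusted p = 0.0013), *plaua*, the urokinase-type activator (2.14, adjusted p = 0.0059), *serpine2* (1.99, adjusted p = 0.003) and *furinb* (0.70, adjusted p = 0.028) were higher at 3 dpi. *tfpi2* (-1.80, adjusted p = 0.021), *adam15* (-0.85, adjusted p = 0.0055) and *adam12* (-0.76, adjusted p = 0.0079) were lower. In macrophages at 3 dpi *adam8a* rose in both species, by 4.60 in zebrafish (adjusted p = 0.0089) and by 3.14 in medaka (adjusted p = 0.00061) on the log2 scale, and the difference between the species was not tested for this gene.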

How the data were processed

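Droplet single-cell UMI counts per gene and barcode had been made by the authors with Cell Ranger (per the file headers, 3.1.0 for zebrafish uninjured replicates 1 and 2 and 5.0.0 for all others) against GRCz11 or a medaka genome, and were deposited unnormalized. The older zebrafish gene list has 29006 symbols and the newer 36109, with 28161 in common. Rows were joined by lower-case symbol within a species, rows of one symbol were summed, and mitochondrial genes were left out. No sequences are shown, since none of the tables used here held any for these genes.

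Kept cells were clustered per species with Scanpy 1.11.5 (2000 variable genes without the members, 30 components, 20 neighbours, Leiden resolution 1.5, no integration). Doublets were kept, and left out as an alternative, with Scrublet's highest scores marked at 0.8% per 1000 barcodes because its automatic threshold marked under 0.5%. Clusters were named by marker score (minimum 0.7, margin 0.25, set after the clusters were seen). Library names made separately agreed for 90.2% of zebrafish and 81.0% of medaka cells.

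UMI counts were summed per library and cell type (at least 10 cells) and tested with edgeR 4.0.16 (TMM, filterByExpr, quasi-likelihood, 3 time points in 1 fit, Benjamini-Hochberg over all genes). DESeq2 1.42.0 was an alternative. Members and lists were chosen with earlier results of these data known. The text names members past the threshold, up to 6 by adjusted p in each direction, those highest in each family and cell type, and *mmp15* and *mmp19* forms. A few other members (*mmp11b*, *mmp16a*, *mmp17a*, *mmp21*, *adamts14*, *adamts15b* and the medaka *timp-2b*) were named after their values were seen. The test was checked on simulated data for 3 dpi against uninjured, with 100 genes changed at each fold. At 4-fold it recovered 25 of 100 over all kept zebrafish cells and 62 of 100 over all kept medaka cells. At 2-fold it recovered 0 and 9. In endothelial cells the 4-fold values were 20 in zebrafish and 69 in medaka. In these simulations many changes of such sizes missed the threshold, more of them in zebrafish. Over all kept cells only 200 genes were changed, of 16904 in zebrafish and 14958 in medaka. In the real comparisons 10.1% and 30.5% of all genes passed. The adjustment is less strict where more genes change, so these recoveries do not measure what the real tests missed. Alternatives were no filter on low counts, another mitochondrial limit and gene minimum, no doublets, fewer time points in the fit, a replicate block, names made within each library, libraries left out, and, added after seeing the data, the newer gene list alone and cells with markers of a second type left out. At most 9 barcodes were shared by any pair of libraries, and they were kept. A gene of the wider list of matrix proteolysis genes is not reported here.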

Additional observations from a re-analysis of the deposited data

Results flagged for a closer look

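In 10 of 84 sets of 4 to 10 libraries, 1 library lay far from the others by Dixon's 95% criterion, where chance marks about 1 set in 20. Uninjured replicate 3 of zebrafish accounted for 4 of them: *timp2b* at 1303.6 CPM in epicardial cells (the next library had 43.4 CPM) and at 119 CPM over all kept cells (next 9.93 CPM), *adamtsl3* at 109 CPM (next 63.4 CPM) and *adamts14* at 4.35 CPM (next 0.368 CPM), both in epicardial cells. Zebrafish 14-dpi replicate 4 stood apart in epicardial cells for *mmp15b* at 86.4 CPM (next 16.2 CPM) and *adamts14* at 16.1 CPM (next 6.35 CPM). In uninjured zebrafish, epicardial *adamtsl7* was at 0.368 CPM in replicate 4 and 0 in the others, and macrophage *timp4.3* was at 85.0 CPM in replicate 2 (next 64.5 CPM). Uninjured medaka replicate 3 stood apart over all kept cells for *ADAMTS20* at 11.1 CPM (next 1.92 CPM) and *adamts6* at 5.14 CPM (next 1.48 CPM). The causes were not tested.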

How the results depend on the processing

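Of 68 calls of a member, 25 held in every alternative, 43 were lost in at least 1 and 1 reversed. The pooled shares of the families' UMIs by cell type moved by less than the SD between libraries in all 92 recomputed values. That SD was taken over all time points and so includes the changes with injury, which makes it a wide limit that few alternatives could pass. The reversal was endothelial *mmp19* of medaka at 14 dpi, -0.30 with clusters made within each library. That setting also gave 5 instead of 9 calls over the 5 medaka cell types at 3 dpi and 0 instead of 2 at 14 dpi. Over all kept zebrafish cells at 3 dpi, leaving 14 dpi out of the fit gave 3 instead of 8 calls. Over the 4 zebrafish cell types tested, leaving out uninjured replicates 1 and 2 gave 21 calls, 11 of them shared, instead of 13 at 3 dpi and 6 instead of 2 at 14 dpi. At 14 dpi DESeq2 gave 7 instead of 0 calls over all kept zebrafish cells, 7 instead of 2 over the zebrafish cell types, 1 instead of 0 over all kept medaka cells and 6 instead of 2 over the medaka cell types. At 14 dpi a minimum of 500 genes gave 2 calls over all kept zebrafish cells, no filter on low counts gave 5 over the zebrafish and 7 over the medaka cell types, leaving 3 dpi out gave 1 in each, and a 15% mitochondrial limit gave 1 over the medaka cell types. The difference between the species gave 3 calls with DESeq2 and 1 without zebrafish uninjured replicates 1 and 2, instead of 0. The share of all genes called in each alternative is not given here, so these counts cannot be set against it.

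With each library left out in turn, calls at 3 dpi ranged from 4 to 10 over all kept zebrafish cells (4 without 3-dpi replicate 3), 5 to 14 over the zebrafish cell types (5 without 3-dpi replicate 2), 9 to 12 over all kept medaka cells and 6 to 11 over the medaka cell types. At 14 dpi they ranged from 0 to 3 over all kept zebrafish cells (3 without 14-dpi replicate 6), 0 to 3 over the zebrafish cell types (0 without uninjured replicate 1), 0 to 0 over all kept medaka cells and 1 to 3 over the medaka cell types. The difference between the species had 0 to 1 calls. The share of all genes called with each library left out is not given here, so these ranges are not read as a result about the members. The causes were not tested. No test was run for medaka granulocytes at 14 dpi (10 cells) or medaka epicardial cells at 3 dpi (9 cells).

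The replicate numbers did not pair the libraries (1 of 10 same-number correlations in zebrafish and 0 of 7 in medaka were over 0.1, and 1 of 11 zebrafish and 0 of 8 medaka libraries correlated best with their own number). With the replicate number as a block, 19 of the 68 calls were lost. The block gave 6 calls over all kept zebrafish cells and 10 over the zebrafish cell types at 3 dpi, 0 and 3 at 14 dpi, 11 and 12 in medaka at 3 dpi, 0 and 3 at 14 dpi, and 0 for the difference between the species. As the share of all genes called with the block is not given here, these counts cannot be set against it.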

Other observations

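Some members were concentrated in small clusters that were left unnamed. By marker score, the zebrafish *aldh1a2* cluster below was closest to macrophages (1.226) and endothelial cells (1.044). The medaka *cxcr3.2* cluster was closest to granulocytes (2.024) and macrophages (1.802). The zebrafish *angptl7* cluster had a low score for every list (highest 0.57, mural). In zebrafish a cluster of 407 cells led by *top2a*, *mki67* and *aldh1a2* had *adamtsl7* at 69.5 CPM and *timp2b* at 162 CPM, and 43.5% of its cells came from 3-dpi replicate 1. A zebrafish cluster of 292 cells led by *angptl7*, *rspo1* and *cyp26b1* had *timp4.3* at 268 CPM and *mmp2* at 255 CPM. In medaka a cluster of 449 cells led by *mki67*, *top2a* and *cxcr3.2* had *mmp9* at 520 CPM, *mmp13b* at 459 CPM and *mmp14a* at 179 CPM, and 52.3% of its cells came from 3-dpi replicate 1. These clusters were not tested between time points.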
